A study of Arabidopsis thaliana with 3 samples.

Results

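Of 33857 loci measured in Col-0, a wild-type Arabidopsis thaliana, 62 were low in silique only. Each reached at least 5 FPKM in both leaf and inflorescence, and its level there, with 1 FPKM added, was at least 4 times that in silique. FPKM is the number of sequenced fragments relative to transcript length and to sequencing depth, and a locus is an interval of the genome that carries an identifier and such a value. The loci were chosen by their values in all 3 organs, so those values are a description and support nothing further. The silique is the fruit with its developing seeds, the leaf is the vegetative organ, and the inflorescence is the cluster of flowers and buds.

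Total RNA was sequenced with strand information kept, with 1 library per organ, so no difference below has a replicate check, an error or a p-value. All 3 organs came from long-day plants aged 5.5 weeks that were bombarded as seedlings with uncoated gold and no plasmid, to imitate transformation, 18 days before collection. No untreated plants were among the samples analysed here. In whole organs, fewer cells of a type and less RNA per cell cannot be told apart.

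After fertilisation the carpels of a flower grow into the silique, while sepals, petals and stamens wither and fall away. The shoot meristem and young buds stay with the inflorescence. The fruit wall is green, and the seeds inside it fill with storage proteins and oil as they mature.

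Markers were checked against the organ labels. Seed storage genes were far higher in silique, light reaction genes highest in leaf and pollen genes highest in inflorescence. Across 22 seed storage genes the summed level was 54228 FPKM in silique, against 338 in leaf and 175 in inflorescence. The 22 genes of the light reactions summed to 18255 FPKM in silique, 39801 in leaf and 8168 in inflorescence. The 20 mature pollen genes summed to 219, 74.8 and 2721 FPKM in the same order. Among 14 reference genes none was 4-fold lower in silique than in either organ. In 1 of them silique was 4-fold higher than leaf, and in none was it 4-fold higher than inflorescence. Among 15 touch and wounding genes that could be compared, none was 4-fold lower in silique than in leaf or inflorescence, while 1 was 4-fold higher than in leaf and 3 than in inflorescence. The 17 such genes at named loci summed to 2491 FPKM in silique, 1459 in leaf and 863 in inflorescence, and the part of handling in the results was not tested.

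Silique was seldom the single low organ. The 62 loci were 0.464% of the 13370 that reached 5 FPKM in both leaf and inflorescence. The same rule turned to leaf gave 801 loci, or 5.56% of 14418, and turned to inflorescence it gave 154, or 1.15% of 13337. Among loci with 5 FPKM in both other organs, 540 were 4-fold lower in silique than in leaf and 186 than in inflorescence. Of all loci that reached 5 FPKM in either organ compared, silique was 4-fold lower than leaf at 5.93% and higher at 12.1%, and lower than inflorescence at 5.52% and higher at 7.2%. The 62 were 11.5% of the 540 lower than leaf and 33.3% of the 186 lower than inflorescence.

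**Figure D1:**
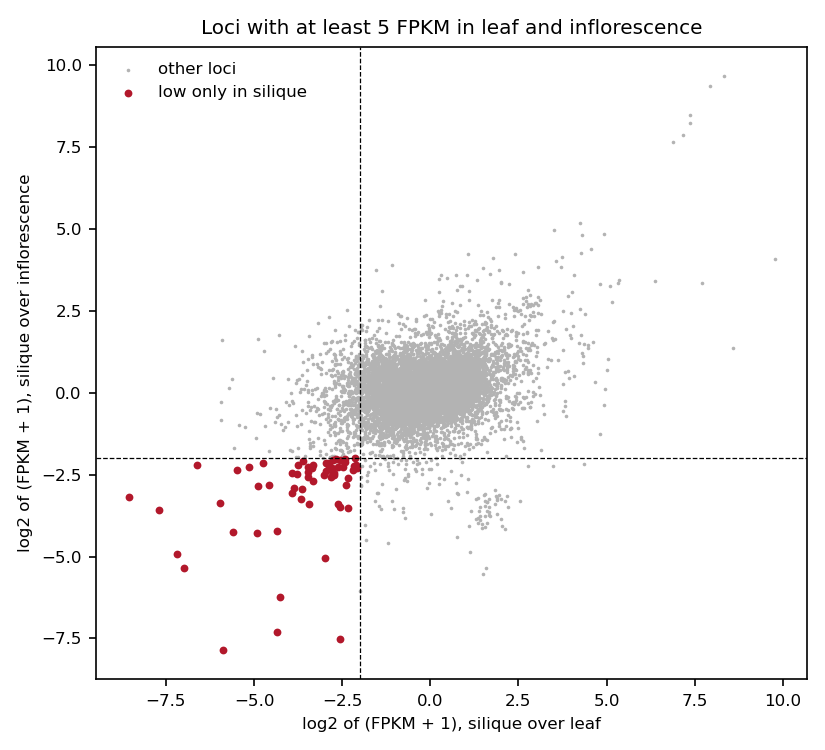
Each point is 1 of 13370 loci with at least 5 FPKM in leaf and inflorescence, with the log2 ratio of silique over leaf on the x axis and of silique over inflorescence on the y axis, both on FPKM + 1. Dashed lines mark 4-fold; the 62 red points lie in the lower left corner, where both ratios pass it, and most lie close to the inflorescence line.

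The median member stood at 1.92 FPKM in silique, 37.2 in leaf and 22.01 in inflorescence. Over all 13370 loci the medians were 23.3, 25.2 and 21.6 FPKM, so the members differed from the rest mainly in silique, the value that chose them. Members ran from a listed 0 to 39.2 FPKM in silique, from 5.13 to 1029 in leaf and from 5.42 to 340.2 in inflorescence. In 24 of the 62 the smaller of leaf and inflorescence was under 5 times the silique level, and in 14 it was at least 8 times, with 1 FPKM added to each. Of those 14, 8 were listed at 0 in silique, where the ratio rests on the 1 FPKM added.

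Leaf and inflorescence were not equal in the members. Leaf was the higher of the pair at 48 of 62 loci, or 77.4%, against 58.8% of the 13370. At 20 members, or 32.3%, leaf was at least 2-fold above inflorescence, against 17.7% of the 13370. Inflorescence was at least 2-fold above leaf at 6 members, or 9.68%, against 8.38%. At 4-fold, leaf was above inflorescence at 9 members, against 5.87% of the 13370, and inflorescence above leaf at 3, against 2.24%. The median log2 ratio of leaf over inflorescence was 0.61 in the members and 0.16 over all. The rule does not fix this direction, but it used both values, so the shares are given as a description.

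Of the 62, 37 could be given a gene name, of which 36 code for protein. Another 20 lie at positions that several identifiers share, 4 lie where the reference has no gene, and XLOC_029111 spans AT5G55450 and AT5G08275. The reference table annotates 20 of the 37 named loci beyond a code. They comprise 8 transcription regulators, 4 enzymes, 2 signalling genes, 2 cell wall genes, 2 anther genes, a potassium channel gene and MEE47.

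**Figure D2:**
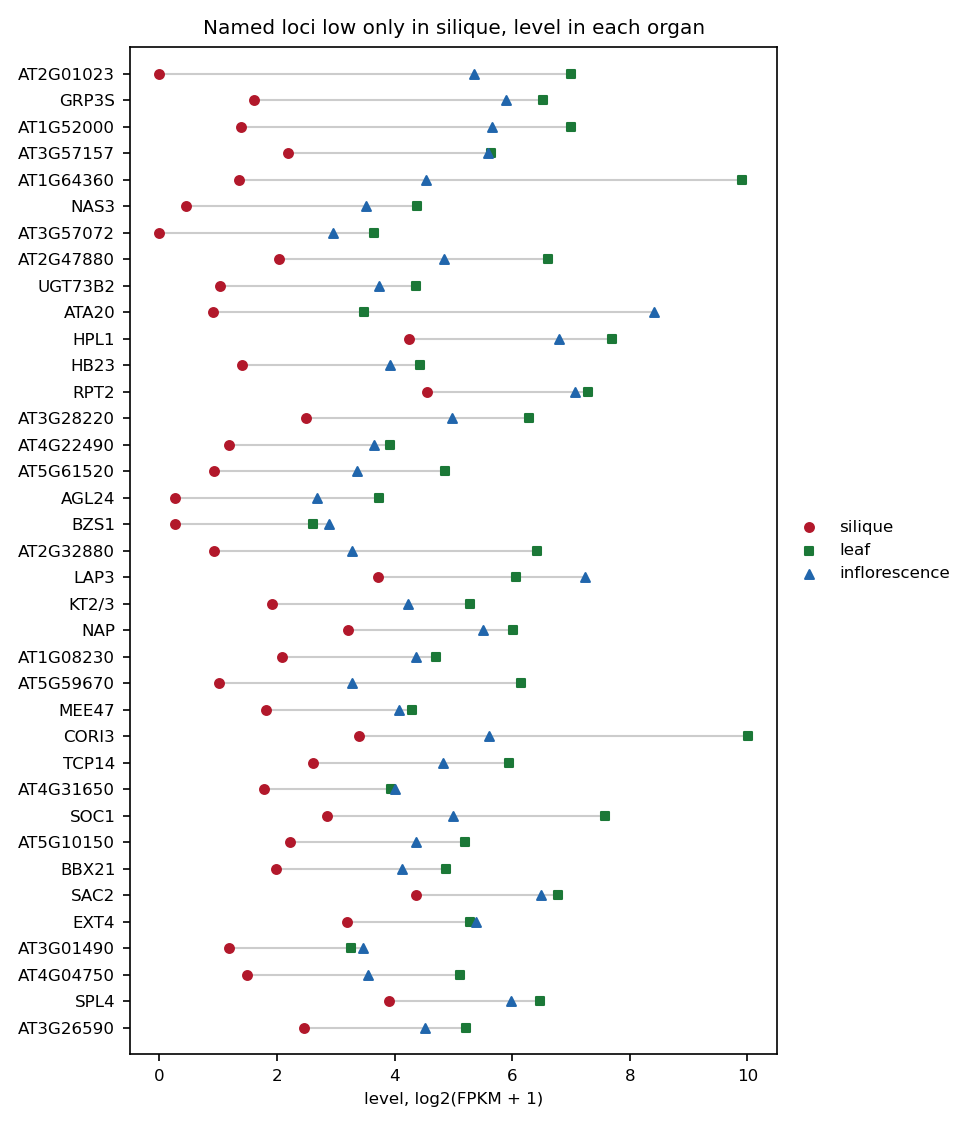
Levels of the 37 named loci low only in silique, as log2(FPKM + 1) on the x axis, with circles for silique, squares for leaf and triangles for inflorescence, 1 library each. Loci run down by the ratio of the smaller of leaf and inflorescence to silique; leaf is the rightmost point of most loci, and inflorescence lies clearly above leaf at ATA20 and LAP3.

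Among the transcription regulators, 3 promote the change from leaf making to flowering. SOC1 (AGL20 in the reference), AGL24 and SPL4 all stood lower in silique than in both other organs. SOC1 encodes a MADS-box factor that gathers signals from day length, cold and age. It lies on chromosome 2, 18807538 to 18811047, and was at 6.19 FPKM in silique, against 190.6 in leaf and 30.9 in inflorescence. Its ratio was the lowest of these 3 against leaf, with a log2 ratio of -4.74, and -2.15 against inflorescence.

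AGL24, a MADS-box partner of SOC1 (chromosome 4, 12670918 to 12674072), was at 0.208 FPKM in silique, 12.4 in leaf and 5.42 in inflorescence. The inflorescence value lies just above the 5 FPKM minimum. SPL4 (chromosome 1, 19806419 to 19807608) is a target of the microRNA miR156, which declines as plants age. It was at 14.04 FPKM in silique, 87.7 in leaf and 62.0 in inflorescence. Its interval also holds the reference gene MIR156i, and how fragments of overlapping genes were assigned is not given in the sources used here. SPL5, a close relative, could not be named: its position is shared with AT3G15260 and by a pair of identifiers. There XLOC_018264 was at 1.46 FPKM in silique, 13.6 in leaf and 26.8 in inflorescence, while XLOC_014819 was at 55.1, 35.6 and 26.0.

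The wider flowering time list held 31 genes, 25 of them at named loci. Of 13 that reached 5 FPKM in leaf and inflorescence, 3 were low in silique only, or 23.1%, against 0.464% of all such loci. That share rests on 3 genes, and the list was drawn up with earlier results of these data known. No flowering time gene met the rule with 5 FPKM added in place of 1, or at 8-fold. Silique was 4-fold lower than leaf at 11 of the 19 list genes that could be compared and higher at none, against 5.93% lower of all loci compared. It was 4-fold lower than inflorescence at 4 of 15, against 5.52%, and higher at 1. SOC1, AGL24 and SPL4 are members, so the rule itself fixed 3 of the 11 and 3 of the 4, and these shares are a description. The median log2 ratio over 24 detected genes was -1.93 for silique over leaf and -0.51 for silique over inflorescence. All 17381 named loci detected in any organ had medians of 0.12 and 0.03.

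SPL9, an age-pathway regulator, and AGL42, a MADS-box relative of SOC1, came close to the rule. SPL9 was at 1.26 FPKM in silique, 7.18 in leaf and 36.4 in inflorescence. AGL42 was at 4.77 FPKM in silique, 87.2 in leaf and 18.6 in inflorescence. FD, the partner of the FT protein at the meristem, was at 0.426 FPKM in silique, 9.40 in leaf and 4.12 in inflorescence, under the minimum in the last. SVP, a floral repressor, was at 2.43 FPKM in silique, 129.7 in leaf and 6.07 in inflorescence. In these 4 genes silique was the lowest organ, and each missed the rule in a single organ's value.

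Other list members did not share the pattern. FT, the mobile flowering signal, was at 205.7 FPKM in silique, 123 in leaf and 16.3 in inflorescence, with silique highest. The floral repressors FLM and MAF2 were at 33.7 and 37.8 FPKM in silique, 64.0 and 51.2 in leaf, and 49.6 and 53.3 in inflorescence. FUL, which also acts in fruit growth, was at 44.2 FPKM in silique, 58.3 in leaf and 61.0 in inflorescence. TOE2 differed least, at 9.92, 10.5 and 10.1 FPKM.

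**Figure D3:**
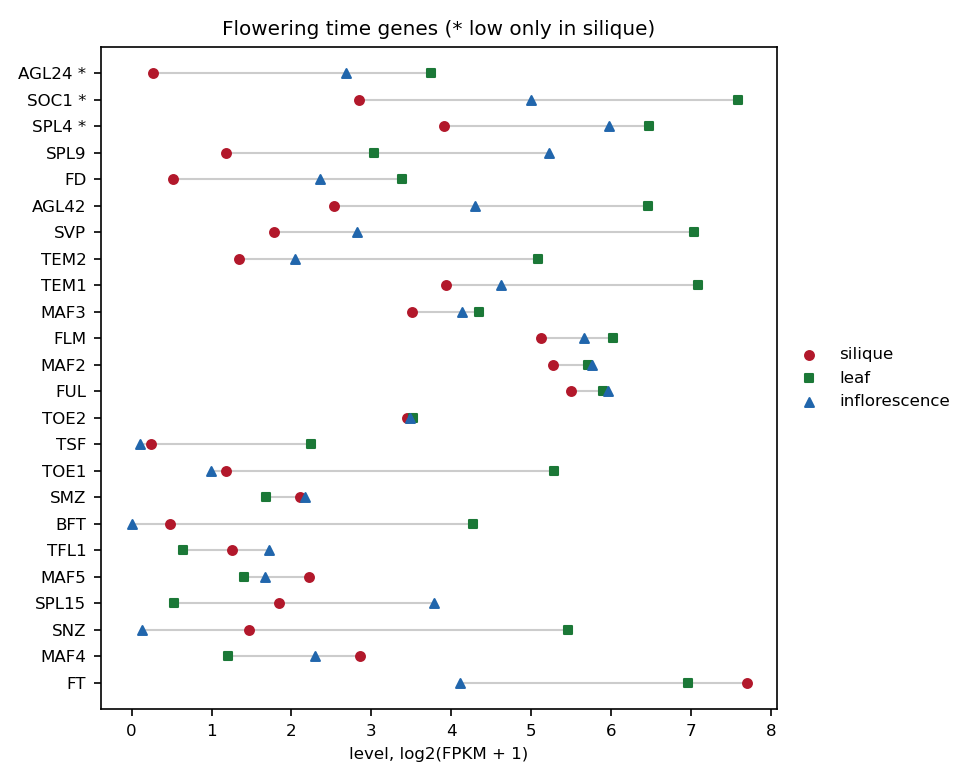
Levels of the 24 flowering time genes with at least 1 FPKM in any organ, as log2(FPKM + 1) on the x axis, with circles for silique, squares for leaf and triangles for inflorescence, 1 library each. Asterisks mark AGL24, SOC1 and SPL4; genes run down from those with the lowest silique level relative to the smaller of the other organs to FT, at 205.7 FPKM in silique.

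BBX21 and BZS1 (BBX20) encode B-box proteins, zinc-finger regulators of light-grown development. BBX21 (chromosome 1, 28366027 to 28367652) was at 2.98 FPKM in silique, 28.2 in leaf and 16.5 in inflorescence. BZS1 (chromosome 4, 18204855 to 18206509) was at 0.205 FPKM in silique, 5.13 in leaf and 6.36 in inflorescence, so it only just reached the minimum. These 2 were the members among 25 named B-box genes, of which 15 reached 5 FPKM in leaf and inflorescence, where 0.464% of all loci were members. Their relative LZF1 (BBX22) was at 19.2 FPKM in silique, 10.7 in leaf and 17.3 in inflorescence, with silique the highest organ. STO (BBX24) was at 109, 118 and 38.7 FPKM in the same order, and BBX14 at 40.7, 525.7 and 37.2, both with inflorescence lowest. The light signalling list as a whole had 1 member, BBX21, among 12 genes that reached the minimum, against 0.464% of all loci.

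TCP14, a factor that promotes cell proliferation in growing shoots (chromosome 3, 17558849 to 17560767), was at 5.14 FPKM in silique, 60.5 in leaf and 27.4 in inflorescence. It was the single member among 12 TCP genes that reached the minimum, against 0.464% of all loci. TCP10 was at 5.06 FPKM in silique, 51.8 in leaf and 19.8 in inflorescence, and TCP4 at 6.97, 32.6 and 18.8. Both belong to the leaf-shaping branch of the family and missed the rule against inflorescence. TCP15, the closest relative of TCP14, was at 18.0 FPKM in silique, 19.3 in leaf and 47.9 in inflorescence. In the list of lateral organ genes, 6 of 15 were 4-fold lower in silique than in leaf and none of 15 than in inflorescence, against 5.93% and 5.52% of all loci compared.

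HB23, a zinc-finger homeodomain gene (chromosome 5, 15911416 to 15912830), was at 1.66 FPKM in silique, 20.6 in leaf and 14.2 in inflorescence. NAP, a NAC factor that drives leaf senescence and was first found as a target of the petal and stamen regulators AP3 and PI (chromosome 1, 26122139 to 26123421), was at 8.26 FPKM in silique, 63.5 in leaf and 44.4 in inflorescence. The senescence list was mixed. Of its 17 genes compared with leaf, 2 were 4-fold lower in silique and 6 higher, against 5.93% and 12.1% of all loci compared. Of 17 compared with inflorescence, 2 (NAP and SAG12) were lower and 3 higher, against 5.52% and 7.2%. Its summed level was 2803 FPKM in silique, 1152 in leaf and 1586 in inflorescence. The second gene lower than leaf was ORE1, a senescence NAC gene, at 5.94 FPKM in silique, 44.8 in leaf and 12.6 in inflorescence.

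The 2 signalling genes had the highest silique levels of the named members and were higher still in the other organs. RPT2 encodes a protein that links the blue-light receptor phototropin to bending towards light (chromosome 2, 13002742 to 13005600). It was at 22.5 FPKM in silique, 155.7 in leaf and 133 in inflorescence. PHOT1, a phototropin, was at 11.997 FPKM in silique, 122 in leaf and 18.3 in inflorescence, low in silique against leaf only. AT3G14205, annotated as SAC2, of the SAC family of phosphoinositide phosphatases (chromosome 3, 4715662 to 4720951), was at 19.7 FPKM in silique, 109 in leaf and 88.9 in inflorescence.

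HPL1 is named for enzymes that make short aldehydes, the scent of cut leaves, from fatty acid peroxides, an activity not measured here. It lies on chromosome 4, 8835491 to 8838676, and was at 18.0 FPKM in silique, 207 in leaf and 111 in inflorescence. It was the single member of the volatile list, where 4 of 8 genes compared were lower in silique than in inflorescence and 1 of 5 than in leaf, against 5.52% and 5.93% of all loci compared. HPL1 itself is the 1 of 5 and is among the 4 of 8, as the rule requires of a member. Those counts leave out TPS10 and TPS11, whose symbols matched trehalose phosphate synthase genes. CORI3, a gene induced by jasmonate and its mimic coronatine (chromosome 4, 12310619 to 12313212), was at 9.48 FPKM in silique, 1029 in leaf and 47.7 in inflorescence. It had the highest leaf level of the 62. CLH1, another jasmonate-induced gene, was at 29.7 FPKM in silique, 333 in leaf and 67.7 in inflorescence, low against leaf only.

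The jasmonate response genes were mixed. Among 20 named genes of jasmonate response, 5 of 19 compared were 4-fold lower in silique than in leaf and 3 higher, against 5.93% lower and 12.1% higher of all loci compared. The member CORI3 is among the 5 by the rule. Against inflorescence 1 of 16, CORI3 itself, was lower, against 5.52% of all. Of the 16 genes of jasmonate synthesis, 12 reached 5 FPKM in leaf and inflorescence. None of them was a member, against 0.464% of all such loci, so the lack of a member is no contrast. Glucosinolate synthesis genes were 4-fold lower in silique than in leaf at 13 of 19, against 5.93% of all loci compared. Against inflorescence none of 18 was lower and 7 were higher, against 5.52% and 7.2% of all.

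UGT73B2, a glucosyltransferase of flavonoids (chromosome 4, 16345281 to 16347133), was at 1.04 FPKM in silique, 19.5 in leaf and 12.3 in inflorescence. The flavonoid list held no member among 9 genes that reached 5 FPKM in leaf and inflorescence, against 0.464% of all such loci. Its median log2 ratio was 2.84 for silique over leaf and 1.22 for silique over inflorescence. NAS3, a synthase of the metal chelator nicotianamine (chromosome 1, 2984881 to 2986130), was at 0.368 FPKM in silique, 19.8 in leaf and 10.5 in inflorescence. Its relatives NAS1 and NAS4 were under 1 FPKM in both silique and inflorescence. They stood at 0.630 and 0.610 FPKM in silique, 46.0 and 54.2 in leaf, and 0.272 and 0.108 in inflorescence. NAS3 was thus the single member of its family with more than 1 FPKM in inflorescence. KT2/3, known as AKT2, a potassium channel gene of the phloem (chromosome 4, 11746507 to 11750698), was at 2.78 FPKM in silique, 38.2 in leaf and 17.8 in inflorescence.

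GRP3S, for a short glycine-rich protein of the cell wall (chromosome 2, 1966816 to 1968037), had the largest ratio of the smaller of leaf and inflorescence to silique among members with an annotated role. It was at 2.04 FPKM in silique, 90.9 in leaf and 58.5 in inflorescence, with log2 ratios of -4.92 and -4.29. Its relative GRP-3 was at 69.7 FPKM in silique, 1071 in leaf and 83.1 in inflorescence, so silique and inflorescence were close there. The 2 genes are alike, and how fragments that match both were divided is not given in the sources used here, so both values are uncertain. EXT4, an extensin gene of the wall (chromosome 1, 28895301 to 28896883), was at 8.11 FPKM in silique, 38.1 in leaf and 40.8 in inflorescence. EXT3 was highest in silique, at 427 FPKM, against 50.04 in leaf and 66.4 in inflorescence. Extensins share repeats, and the same uncertainty holds for them.

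ATA20 and LAP3, 2 genes of the anther, were the members in which inflorescence stood highest above leaf among named loci. ATA20, an anther gene (chromosome 3, 5201644 to 5203197), was at 0.875 FPKM in silique, 10.2 in leaf and 340.2 in inflorescence. LAP3, needed for the pollen wall (chromosome 3, 21991826 to 21995308), was at 12.2 FPKM in silique, 66.2 in leaf and 151 in inflorescence. Its interval also holds the reference gene RBL13. The locus beside LAP3, AT3G00930, was at 42.9 FPKM in silique, 14.6 in leaf and 2032 in inflorescence.

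Markers of the tapetum, the anther layer that feeds pollen, were far lower in silique and leaf than in inflorescence. Of 21 named tapetum genes, 3 symbols (MS2, EXL2 and EXL5) had matched genes of other functions and are left out here. Of the other 18, 4 reached 1 FPKM in silique, 2 in leaf and 16 in inflorescence. The 2 in leaf were ATA20 and LAP3 themselves, and the highest of the other 16 was at 0.856 FPKM there. The 18 summed to 20.205 FPKM in silique, 78.3 in leaf and 2140 in inflorescence. Silique was 4-fold lower than inflorescence at all 14 that could be compared, against 5.52% of all loci compared. The members ATA20 and LAP3 are among the 14 by the rule. Of the defining genes, ACOS5 was at 29.6 FPKM in inflorescence and listed at 0 in silique and leaf. GRP19, a pollen coat gene, was at 2.37 FPKM in silique, 0.856 in leaf and 715 in inflorescence.

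MEE47, named for a mutant whose embryos arrest (chromosome 4, 405673 to 407142), was at 2.51 FPKM in silique, 18.6 in leaf and 15.8 in inflorescence. Silique, the organ that holds the embryos, was the lowest, which the rule requires of every member.

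The other 17 named loci carry a code alone in the reference, so no role is given. AT1G64360 (chromosome 1, 23887870 to 23888533) had the lowest ratio to leaf of the members above 0 in silique, at 1.54 FPKM in silique, 957 in leaf and 22.2 in inflorescence, a log2 ratio of -8.56 over leaf. The locus beside it, AT1G64370, was at 18.7 FPKM in silique, 927 in leaf and 61.8 in inflorescence, also lowest in silique and highest in leaf. AT1G52000 (chromosome 1, 19333159 to 19336115) was at 1.63 FPKM in silique, 127 in leaf and 49.2 in inflorescence. AT2G47880 (chromosome 2, 19605040 to 19605671) was at 3.09 FPKM in silique, 96.9 in leaf and 27.6 in inflorescence, over an interval that also holds AT2G47885.

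AT2G32880 and AT5G59670 leaned strongly to leaf. AT2G32880 was at 0.914 FPKM in silique, 84.4 in leaf and 8.73 in inflorescence. AT5G59670 was at 1.01 FPKM in silique, 69.7 in leaf and 8.73 in inflorescence. AT3G28220 was at 4.67, 76.8 and 30.4 FPKM in that order of organs. In all 3, leaf was the highest organ.

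In 3 others leaf was above inflorescence by less than 4-fold. AT5G61520 was at 0.901 FPKM in silique, 28.0 in leaf and 9.28 in inflorescence. AT4G04750 was at 1.80, 33.6 and 10.8 FPKM in the same order. AT5G10150, the gene next to FLC in the reference, was at 3.67 FPKM in silique, 35.6 in leaf and 19.6 in inflorescence.

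Leaf and inflorescence were nearly level at 3 of the code-only loci. AT4G31650 was at 2.44 FPKM in silique, 14.3 in leaf and 15.1 in inflorescence. AT3G01490 was at 1.26, 8.61 and 10.02 FPKM in that order. The noncoding gene AT3G57157 (chromosome 3, 21157011 to 21157247), the single named member that does not code for protein, was at 3.57 FPKM in silique, 48.9 in leaf and 47.1 in inflorescence. Another 3 had a leaf level under 2-fold above inflorescence. AT1G08230 was at 3.27 FPKM in silique, 25.0 in leaf and 19.7 in inflorescence, AT4G22490 at 1.28, 14.2 and 11.5, and AT3G26590 at 4.52, 36.3 and 21.9.

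AT2G01023 and AT3G57072, both narrower than 200 bp, were the 2 named loci listed at 0 in silique. AT2G01023 (chromosome 2, 9648 to 9767) stood at 127 FPKM in leaf and 40.04 in inflorescence. Beside it AT2G01021 was at 25172 FPKM in silique, 1595 in leaf and 7920 in inflorescence, the highest silique level of all 13370 loci. AT3G57072 (chromosome 3, 21125699 to 21125836) reached 11.6 FPKM in leaf and 6.72 in inflorescence. At such widths few fragments give a large FPKM. None of the named members of 200 bp or wider was listed at 0 in silique.

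In all, 11 members were listed at 0 in silique, and every locus so listed with 5 FPKM in both other organs is a member by the rule's arithmetic. Of these 11, 6 lie at shared positions and 5 alone, of which 4 are narrower than 200 bp. The fifth, XLOC_004721 (chromosome 1, 2436467 to 2436959), lies where the reference has no gene and had 144 FPKM in leaf and 29.2 in inflorescence. A value of exactly 0 may stand for an estimate that failed, and these loci enter counts, the order of loci and plots of ratios only through the 1 FPKM added. Loci listed at 0 in silique were 0.0823% of the 13370, and loci under 1 FPKM there 0.172%, of which 21 were members. Those 21 comprise the 11 at 0 and 10 above it.

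The other unnamed members alone at their position were low in silique to different degrees. XLOC_032956, with no reference gene, was at 3.42 FPKM in silique, 58.4 in leaf and 19.5 in inflorescence. XLOC_029111 was at 0.792, 11.2 and 9.05 FPKM in the same order. XLOC_017363 and XLOC_000390, both narrower than 200 bp and at 0 in silique, were at 18.1 and 5.197 FPKM in leaf and at 74.9 and 9.48 in inflorescence.

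Shared positions were more common in the members than in the loci they were drawn from. They held 20 of 62 members, or 32.3%, against 22.5% of the 13370. At these 20 positions 24 other identifiers stood beside the members. Of the 24, 17 reached 5 FPKM in leaf and inflorescence. None was itself a member, against 0.464% of all such loci, so the lack of a member is no contrast. In silique 19 of the 24 were higher than the member at their position. The members were chosen for a low silique value, so that count follows in part from the choice. The numbering of identifiers ascends along a chromosome in 2 separate runs, and 15 of the 20 members shared their position with an identifier of their own run. The same share over all loci at shared positions was not computed, so the count is a description.

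Some of these positions held a member at 0 in silique beside an identifier that was not. XLOC_016820 (chromosome 3, 19692771 to 19697542), at a position that spans LUT1 and AT3G53140, was listed at 0 in silique, with 58.5 FPKM in leaf and 232 in inflorescence. XLOC_016819, at the same position, was at 12.8 FPKM in silique, 23.0 in leaf and 21.5 in inflorescence. XLOC_010938 (chromosome 2, 17621156 to 17624851), at the position of AT2G42300, was listed at 0 in silique, with 19.2 FPKM in leaf and 156 in inflorescence. Beside it XLOC_010937 was at 21.8, 28.7 and 64.3 FPKM. XLOC_013677, at the position of ACA4, a calcium pump gene, was listed at 0 in silique, with 205 FPKM in leaf and 10.9 in inflorescence, with XLOC_013676 at 14.1, 93.2 and 20.5.

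When the identifiers of a position were summed, 5 of the 20 still met the rule. These were the positions of XLOC_016820, XLOC_031230, XLOC_027443, XLOC_030847 and XLOC_030922. At AT5G20110 the sum was 0.350 FPKM in silique, 34.5 in leaf and 12.7 in inflorescence, a wider gap than for XLOC_030847 alone. At AT5G21950 it was 44.3 FPKM in silique, 193 in leaf and 228 in inflorescence. At the position of LPP3, a lipid phosphatase gene, XLOC_014138 was at 5.05 FPKM in silique, 41.8 in leaf and 35.1 in inflorescence, but XLOC_014137 was at 61.8, 45.6 and 63.0. The sum there was under 2-fold lower in silique than in either organ. Which transcript each identifier stands for is not given in the sources used here.

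**Figure D4:**
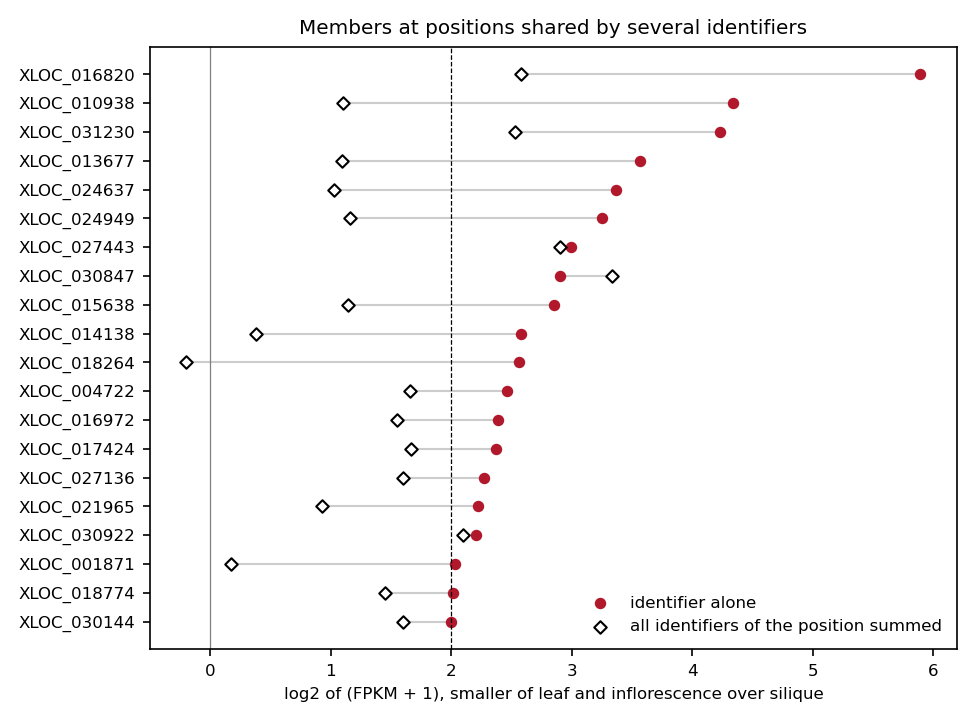
The 20 members at shared positions, with the log2 ratio of the smaller of leaf and inflorescence over silique, on FPKM + 1, on the x axis. Red circles are the member alone and open diamonds the sum of all identifiers at its position, 1 library per organ; the dashed line is the 4-fold rule, which 5 of the 20 diamonds pass.

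The remaining shared positions held other named genes of the reference. XLOC_027136, at emb1211, was at 28.6 FPKM in silique, 329 in leaf and 142 in inflorescence, with its companion at 30.6, 70.7 and 39.3. XLOC_024949, at AT4G21910, was at 2.16 FPKM in silique, 39.0 in leaf and 29.2 in inflorescence. XLOC_016972, at PROT2, a proline transporter gene, was at 3.16, 20.8 and 28.0 FPKM. XLOC_015638, at UMAMIT47, was listed at 0 in silique, with 28.9 FPKM in leaf and 6.23 in inflorescence. XLOC_021965, at a position with UGT84A1 and AT4G15475, was at 2.57 FPKM in silique, 25.1 in leaf and 15.7 in inflorescence. For none of these 5 did the sum over the position meet the rule.

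The last 8 shared positions held genes known to the reference mostly by code. XLOC_017424 was at 12.2 FPKM in silique, 102 in leaf and 67.3 in inflorescence, with a companion at 11.7, 11.02 and 10.8. XLOC_004722, at a position with LBD1, was at 6.81, 52.2 and 42.02 FPKM. XLOC_027443 (AT5G27889 to AT5G27895) was at 0.253, 9.002 and 40.5 FPKM, with a companion under 1 FPKM in every organ. In the first of these the companion was nearly level across organs.

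XLOC_031230 (AT5G27240 to AT5G27250) and XLOC_024637 (AT4G16765) were listed at 0 in silique. Leaf held 19.2 and 61.1 FPKM of them and inflorescence 17.7 and 9.33. XLOC_001871 (AT1G33680 and AT1G33700) was at 2.84 FPKM in silique, 19.5 in leaf and 14.7 in inflorescence. XLOC_018774 (AT3G24460 and AT3G24463) was at 0.801, 10.6 and 6.26 FPKM. XLOC_030144 (AT5G07152 and AT5G07150) was at 1.38, 9.53 and 8.51 FPKM, the member nearest to the 4-fold edge.

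Members were spread over all 5 nuclear chromosomes, with 12 on chromosome 1, 8 on chromosome 2, 17 on chromosome 3, 13 on chromosome 4 and 12 on chromosome 5. Per locus with 5 FPKM in leaf and inflorescence, the share ran from 0.343% on chromosome 1 to 0.638% on chromosome 3. In 3 pairs the members lay within 10 kb of each other, and no 3 members did. The pairs were XLOC_004721 with XLOC_004722 at LBD1, XLOC_017424 at a position with MBD9 and HB-1 with AT3G01490, and HPL1 with XLOC_021965. How many such pairs other sets of as many loci would give was not computed. Of 61 flanking loci within 10 kb that reached the minimum, 2 were at least 2-fold lower in silique than in both organs, or 3.28%, against 2.36% of the loci flanking all 13370. Over all 13370 loci that share was 2.46%. These 2 were AT1G64370 and AT4G15450, beside AT1G64360 and HPL1. The median width was 2583 bp in the members and 2706.5 bp over all. Loci narrower than 200 bp were 22, or 0.165%, of the 13370. Of these 22, 4 were members, against 0.464% of all loci, and all 4 were listed at 0 in silique.

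Several members lay close to the 4-fold rule. Just inside it among named loci of at least 20 FPKM in leaf and inflorescence were AT3G26590 at 4.14, SPL4 at 4.19 and EXT4 at 4.30, as the ratio of the smaller of leaf and inflorescence to silique with 1 FPKM added. Just outside were UMAMIT20 at 3.92, HMT3 at 3.90 and JAL23 at 3.89. UMAMIT20, an amino acid transporter gene, was at 6.85 FPKM in silique, 41.1 in leaf and 29.8 in inflorescence. HMT3, of methionine synthesis, was at 4.54, 76.4 and 20.6 FPKM, and JAL23 at 12.6, 51.8 and 95.1. The edge of the group is thus a matter of the rule and not of a gap in the values.

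Over the 40 gene lists, 9 distinct genes were members of 417 that reached 5 FPKM in leaf and inflorescence, or 2.16%, against 0.464% of all loci. Without the symbols found to match genes of other functions, they were 9 of 415, or 2.17%. Flowering time genes made up 3 of the 9, and the lists were drawn up with earlier results known. The 9 stood in 6 lists: flowering time, tapetum, jasmonate response, light signalling, senescence and volatiles. No member came from the lists of light reactions, carbon fixation, glucosinolate synthesis, clock, cell wall loosening, cuticle, auxin response or cell division. Each of these held at most 20 genes that reached the minimum. With 0.464% of all loci as members, the lack of a member in lists of that size is no contrast. Cell division genes were at 5 FPKM in both leaf and inflorescence at none of 18, so no member was possible there. IAA1, an auxin-induced gene, was at 5.37 FPKM in silique, 31.8 in leaf and 19.3 in inflorescence, and missed the rule against inflorescence. ARR16, a cytokinin response regulator gene, was at 13.5 FPKM in silique, 59.4 in leaf and 41.6 in inflorescence, also short of the rule against inflorescence alone.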

How the data were processed

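The authors deposited FPKM, per the file headers, with a value for each identifier in each organ. The submitters' processing notes name TopHat and TAIR10. How FPKM was computed and scaled is not given in the sources used here, so depth is unknown. As a guide to it, the lowest 100 nonzero values at loci of middle width, each multiplied by width in kilobases, averaged 0.0444 in silique, 0.0455 in leaf and 0.0316 in inflorescence.

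Starts were counted from 1 after adding 1 to the files' starts. Names came from the positions of genes in a RefSeq table (TAIR10.1). A named locus is alone at its position, and exactly 1 gene shares at least 50% of both lengths with it. This named 26613 of 33857 loci. Of 955 list entries, 891 matched a reference gene and 742 were at named loci. Ratios are on log2(FPKM + 1), a scale that understates the ratios of low loci. In each comparison of 2 organs, the higher had to reach 5 FPKM. Members named were those with the largest ratio, level or organ bias, list genes and noncoding loci; the other named members, the gene families and comparison genes were added after their values were seen. For 5 list symbols found to match genes of other functions, values without them were computed after seeing the data. The other list entries were not all checked for such matches. The members and lists were chosen with earlier results of these data known. No sequences are shown, and promoters were not analysed here. Python 3.11.15 and pandas 2.3.3 were used, and the counting step was tested on simulated data.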

Additional observations from a re-analysis of the deposited data

How the results depend on the processing

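Without replicates, these limits are those of the rule. All 62 loci met it at a pseudocount of 0.1 (92 loci in all), a minimum of 1 FPKM (69) and upper quartile scaling (75); 60 did under median ratio scaling (68 in all), which lost BZS1 and XLOC_000390. A pseudocount of 5 left 18, a minimum of 20 FPKM 27 and 8-fold 14, while 3-fold gave 115. GRP3S, AT1G52000, AT1G64360 and AT3G57157 met it under each of 12 alternatives. Identifiers alone at their position gave 42, loci of at least 200 bp 58, and, chosen after seeing the data, summed positions 49 (47 of the 62 kept) and loci above 0 in silique 51. List genes among the members numbered 9; they were 2 at a pseudocount of 5, 16 at 3-fold and 0 at 8-fold. Flowering time genes were 0 at a pseudocount of 5 and at 8-fold, and 5 at 3-fold. Loci lower in silique than leaf were 1032, and 568 at a pseudocount of 5, 1641 at 3-fold and 371 at 8-fold. Loci higher in silique than leaf were 2115, and 1111 at a pseudocount of 5, 1158 at a minimum of 20 FPKM and 1274 at 8-fold. Loci lower than inflorescence were 980, and 482, 536 and 498 under the same 3 settings, and loci higher were 1278, and 693, 805 and 684. Each moved because the setting itself is stricter or looser. No paired analysis was possible because each organ has 1 library.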
